A study of Mus musculus with 5 samples.

Results

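The genes described here encode enzymes of cholesterol synthesis. They were chosen by name as Hmgcs1, Sqle, Idi1, Fdft1, Fdps, Lss, Cyp51 and Dhcr7, and 7 of these 8 were measured among the 24046 gene symbols of the table. Idi1 was not analysed here. All 7 passed the filter on low values that left 13661 genes for testing. Hematopoietic stem cells (HSCs) were sorted from the marrow of CD45.1 congenic recipients that had received CD45.2 donor marrow homozygous for floxed Syncrip, which encodes an RNA-binding protein. The WT group carried no Mx1-Cre transgene (3 libraries: WT 1, WT 2 and WT 3) and the KO group carried it (2 libraries: KO 2 and KO 3). Both groups were given pIpC, which induces interferon and so switches on the Mx1 promoter, and the sort took place 9 weeks from transplantation, 3 weeks from the pIpC treatment. The gate took donor cells without lineage markers or CD48 and with Sca1, c-Kit and CD150. Mx1-Cre acts in all interferon-responsive cells and is not restricted to HSCs, and the recipients were lethally irradiated. The study's methods speak of independent biological replicates in general, but no label tied these libraries to separate mice, and each p-value measures only the spread between these libraries, which may be technical.

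Cells build cholesterol from acetyl-CoA through mevalonate. The early enzymes make prenyl diphosphates, which also feed protein prenylation, dolichol and ubiquinone. Squalene synthase commits these units to sterols, and the later enzymes close and trim the rings. SREBP transcription factors, held in the endoplasmic reticulum by INSIG when sterol is plentiful and escorted out by SCAP when it is scarce, switch on nearly all of these genes together. A group of such genes is therefore commonly read as an output of sterol sensing.

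Syncrip itself was 1944, 1440 and 1794 normalized read counts in WT 1, WT 2 and WT 3 and 294 and 343 in KO 2 and KO 3, which was 18.5% of the WT mean (limma log2 fold change -2.43 ± 0.22, SE, adjusted p = 0.0352). This was the one limma call, but no gene was called without the filter, with any 1 WT library left out, or after a linear trend on transcript length and GC content was subtracted (Syncrip then at -1.53, adjusted p = 0.138). Depth was 21748781 to 22779536 reads in WT, 18308876 in KO 2 and 12539599 in KO 3. The fewest reads behind any value of the 7 genes was 208. All 8 HSC marker genes had reads in every library, with a summed share of 0.0731% to 0.105% of reads in WT, 0.0686% in KO 2 and 0.0899% in KO 3. Kit made up most of that sum, while Ptprc, which encodes CD45, was at 38.1% of WT (limma adjusted p = 0.0815, DESeq2 adjusted p = 1.79e-05) and the groups overlapped for the other 7 markers. The log2 fold change was above 0 for 6 of the 8 markers (median 0.53). KO 3 was above every WT library for Slamf1, Procr, Mecom, Hlf and Fgd5, at 172% (Slamf1) to 295% (Fgd5) of WT. KO 2 lay within the WT range for these genes. Among all genes tested, KO 3 was above every WT library in 40.0%. Cd48, the marker gated out, was at 47.3% of WT (limma adjusted p = 0.096, DESeq2 adjusted p = 0.0371). Markers of other cells were also present. The 6 stroma markers took 0.0102% of reads in WT 2 against 0.0014% to 0.00186% in the other libraries. The 8 neutrophil markers took 5.72% to 6.84% of WT reads, 5.10% in KO 2 and 2.49% in KO 3, all 8 with reads in every library. Of these, 3 (Ngp, Ltf and Camp) were below WT in both KO libraries, beside 23.2% of all genes tested. The groups overlapped for the other 5, with Elane at 102% and Prtn3 at 126% of WT. The 7 erythroid markers took 0.133% to 0.188% in WT, 0.13% in KO 2 and 0.096% in KO 3, with 2 of the 7 above and 2 below WT in both KO libraries. The 12 adipocyte markers took 0.141% of reads in KO 2, where 11 had reads, against 0.00051% to 0.0016% in the other libraries, where 5 to 8 were at 0. Differences from the WT mean also varied with base composition. Slopes are log2 differences per 10 percentage points of GC content, fitted together with transcript length. They were -0.132 to 0.212 in WT, 0.482 in KO 2 and 0.963 in KO 3. Whether these slopes are technical or part of the group difference was not tested. In bulk RNA, fewer cells of a type and less RNA per cell cannot be told apart.

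The 250 bases before the Hmgcs1 start site are shown because Hmgcs1 gave the clearest separation of the groups among the 7 genes, and because it was the sole one of the 4 with an entry in the RefSeq promoter table used here (Hmgcs1, Lss, Cyp51 and Dhcr7) that held the sterol motif searched for. The region is chr13:119690101-119690350 on the plus strand (GRCm38.p6). Capitals mark matches on either strand to the sterol motif TCACNCCAC, to CCAAT and to GGGCGG, and no match overlapped another.

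Hmgcs1 promoter: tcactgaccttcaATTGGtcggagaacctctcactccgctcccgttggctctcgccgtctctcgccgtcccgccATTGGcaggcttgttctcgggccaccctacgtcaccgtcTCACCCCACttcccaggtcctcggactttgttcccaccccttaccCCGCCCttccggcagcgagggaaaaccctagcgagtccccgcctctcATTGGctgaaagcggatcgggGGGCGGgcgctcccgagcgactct

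The sterol motif began at -137, beside 3 CCAAT boxes and 2 GC boxes. Among 32851 mouse promoter windows of this length, 1.05% held TCACNCCAC, 33.8% held CCAAT and 32.7% held GGGCGG. The Lss window held 1 CCAAT box and 2 GC boxes and the Cyp51 window 1 of each. Dhcr7 had 3 annotated starts, whose windows held 0, 0 and 2 CCAAT boxes and 1, 0 and 3 GC boxes. These matches describe letters in the windows and not sites of binding.

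The question for these genes was whether sterol synthesis moved with loss of Syncrip. No member passed the test. The limma adjusted p-values of the 7 genes ranged from 0.267 to 0.941, with 0 of 7 called at an adjusted p under 0.05 by limma, edgeR or DESeq2, and 0 of 7 at an unadjusted limma p under 0.05. Across all genes tested, the background was 0.00732% called by limma, 0.0146% by edgeR and, by DESeq2, 9.27% higher and 9.46% lower in KO (of the 12170 genes to which it gave an adjusted p), while 27.8% of all genes tested had an unadjusted limma p under 0.05. The median log2 fold change of the 7 genes was -0.19 beside 0.02 over all genes tested, with 6 of 7 below 0. The intervals did not exclude moderate changes. Over the 7 genes, the 95% intervals reached from -1.03 at the lowest to 1.01 at the highest on the log2 scale.

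**Figure D1:**
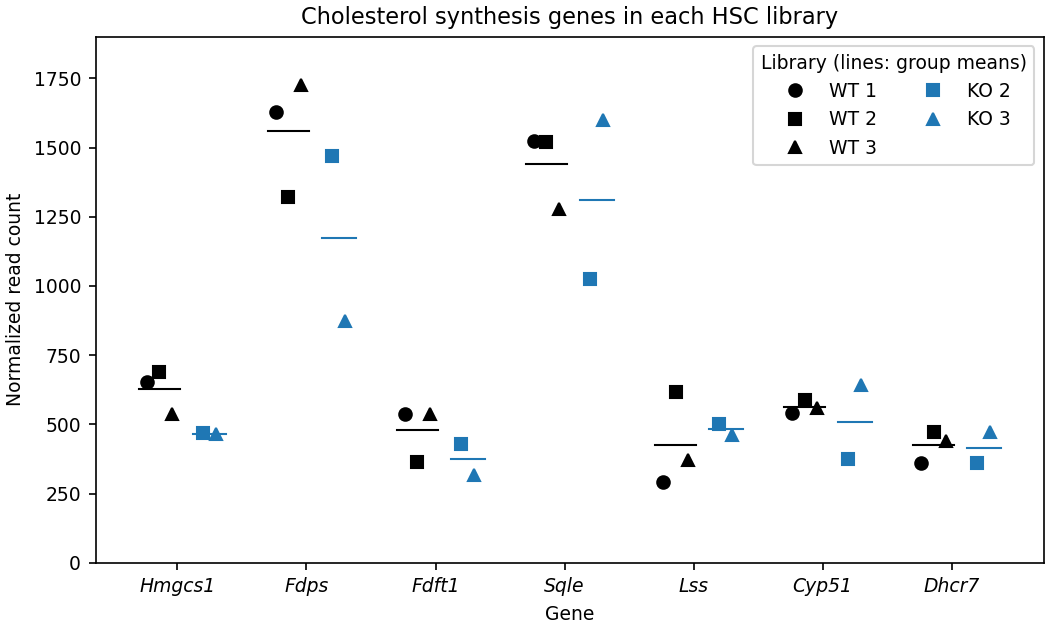
Normalized read count (linear axis from 0) of the 7 cholesterol synthesis genes in each library, with black symbols for WT, blue for KO and a line at each group mean. Hmgcs1 is the one gene with both KO libraries below all 3 WT libraries, and KO 2 and KO 3 lie on opposite sides of the WT values for Sqle and Cyp51.

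The mevalonate and prenyl steps came first. HMG-CoA synthase, the product of Hmgcs1 (chromosome 13, 119690379 to 119708260, plus strand, GRCm38), joins acetyl-CoA to acetoacetyl-CoA. Its normalized read counts were 652, 690 and 536 in WT 1, WT 2 and WT 3 and 468 and 466 in KO 2 and KO 3. Both KO libraries were thus below every WT library. The WT libraries averaged 626 ± 79.9 (SD, n = 3). The KO pair averaged 467 ± 1.04 (SD, n = 2), which was 74.6% of WT. In limma the log2 fold change was -0.41, with an SE of 0.23 and a 95% interval of -0.94 to 0.11 (adjusted p = 0.267). Hmgcs1 had the lowest GC content of the 7 transcripts (43.1%), and after removal of the trend with transcript length and GC content its log2 fold change was 0.07. An annotated antisense gene, Gm48342, lies within Hmgcs1 and was not analysed here.

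Farnesyl diphosphate synthase, encoded by Fdps (chromosome 3, 89093588 to 89101959, minus strand), makes the branch-point prenyl unit. Fdps had 1628, 1322 and 1724 normalized read counts in WT and 1470 and 875 in KO 2 and KO 3. KO 3 was below all WT libraries and KO 2 lay within them. Gm43738, annotated on the same strand across most of Fdps, could share its reads. In limma the log2 fold change was -0.45 (SE 0.26, 95% interval -1.03 to 0.14, adjusted p = 0.28). Without KO 2, the comparison of KO 3 alone with WT gave -0.82 (limma adjusted p = 0.0425), the one case in which a member was called, and 22.1% of all genes tested were called in that comparison. With KO 2 alone the value was -0.07 (limma adjusted p = 0.891).

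Squalene synthase, squalene epoxidase and lanosterol synthase carry the chain from farnesyl diphosphate to the first sterol. Fdft1, for squalene synthase (chromosome 14, 63145150 to 63179578, minus strand), had 537, 365 and 537 normalized read counts in WT and 431 and 316 in KO. KO 3 was again the lowest library and KO 2 lay within the WT range (limma log2 fold change -0.36 ± 0.29, SE, 95% interval -1.01 to 0.30, adjusted p = 0.437). The end of Fdft1 overlaps Ctsb on the opposite strand, which had 9302 to 11610 normalized read counts in WT, 9933 in KO 2 and 5536 in KO 3, and whether counting used strand was not stated, so reads of the shared bases cannot be told apart.

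Sqle, for squalene epoxidase (chromosome 15, 59315077 to 59331192, plus strand), had 1523, 1521 and 1278 normalized read counts in WT, 1024 in KO 2 and 1601 in KO 3. KO 2 was below and KO 3 above all WT libraries. The mean in KO was 91.1% of WT (log2 fold change -0.17, SE 0.23, 95% interval -0.70 to 0.37, limma adjusted p = 0.667), and without KO 2 the value was 0.16.

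Lss, for lanosterol synthase (chromosome 10, 76531588 to 76557138, plus strand), was the single member with a mean above WT. Its normalized read counts were 292, 615 and 373 in WT and 503 and 463 in KO, so both KO libraries lay inside a wide WT range (WT coefficient of variation 39.4%). Its limma log2 fold change was 0.25 (SE 0.33, 95% interval -0.51 to 1.01, adjusted p = 0.649). An antisense gene at the Lss end, 4930483K19Rik, had 37.5 to 82.5 normalized read counts in WT and 62.7 and 75.9 in KO, and with strand not stated the shared bases cannot be assigned.

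The last pair act on the sterol rings. Cyp51, for lanosterol demethylase (chromosome 5, 4081145 to 4104746, minus strand), was the most even member within WT (540, 587 and 558 normalized read counts, coefficient of variation 4.17%). It was 376 in KO 2 and 641 in KO 3, below and above all WT libraries respectively. Its log2 fold change was -0.19 (SE 0.28, 95% interval -0.82 to 0.44, limma adjusted p = 0.67), and it was 0.06 after removal of the length and GC trend and 0.19 without KO 2. Cyp51 meets Akap9, on the opposite strand, at its end, so reads of the bases they share cannot be assigned either.

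Dhcr7 (chromosome 7, 143823145 to 143848410, plus strand) encodes the reductase of the final step to cholesterol. It had 361, 474 and 439 normalized read counts in WT and 359 and 472 in KO, with KO 3 within the WT range and KO 2 just below its lowest value. The KO mean was 97.9% of WT (log2 fold change -0.03, SE 0.26, 95% interval -0.63 to 0.56, limma adjusted p = 0.941).

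The KO libraries were thus low in different members. KO 2 was below all WT libraries in 4 of 7 genes (Hmgcs1, Sqle, Cyp51 and Dhcr7), within the WT range in 3 and above it in 0. Among all genes tested, KO 2 was below every WT library in 30.9% and above in 32.8%. KO 3 was below in 3 (Hmgcs1, Fdps and Fdft1), within in 2 and above in 2 (Sqle and Cyp51), where 38.3% of all genes tested were below and 40.0% above. Both KO libraries were below all WT libraries in 1 of 7 genes and above in 0, beside a background of 23.2% lower and 23.9% higher among all genes tested. The count of 1 became 0 after removal of the length and GC trend (background 18.5% lower) and 3 without WT 2 (background 28.8% lower). Summed normalized read counts of the 7 genes were 5534, 5574 and 5445 in WT, 4630 in KO 2 and 4834 in KO 3, or 85.8% of WT. The sum weights the abundant Fdps and Sqle most. Per gene, the median log2 difference from WT was -0.23 in KO 2 and 0.16 in KO 3. The adipocyte markers had their highest share in KO 2, and the lowest neutrophil share and steepest GC slope were in KO 3. The part of the adipocyte, stroma, neutrophil, erythroid and Cd48 values in these results was not tested.

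Per kilobase of the longest annotated transcript, WT levels ran from Fdps (528 ± 71.2, SD, n = 3) through Sqle (323 ± 31.6), Hmgcs1 (181 ± 23.1), Dhcr7 (151 ± 20.6), Cyp51 (143 ± 5.96) and Fdft1 (130 ± 26.8) to Lss (61.0 ± 24.1). The WT ranges of neighbours overlapped for Hmgcs1 and Dhcr7, Dhcr7 and Cyp51, and Cyp51 and Fdft1. Those of Fdps and Sqle, Sqle and Hmgcs1, and Fdft1 and Lss did not overlap. The order depends on the transcript taken, since the HSC isoforms were not given.

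The other 10 sterol enzymes described had values in both directions. None was called by limma or edgeR, 4 had an unadjusted limma p under 0.05, and DESeq2 called 1, Hsd17b7, lower. Both KO libraries were below all WT libraries in 4 and above in 2, where all genes tested gave 23.2% and 23.9%, with 27.8% at that unadjusted p and 9.46% called lower by DESeq2. The median log2 fold change was 0.02, the value over all genes. The 2 with higher values belong to the mevalonate phosphorylation and decarboxylation steps. Mevalonate kinase, Mvk, had 271, 178 and 273 normalized read counts in WT and 369 and 419 in KO (log2 fold change 0.74, limma adjusted p = 0.161). Mvd, which makes isopentenyl diphosphate, had 202, 321 and 417 in WT and 426 and 450 in KO (log2 fold change 0.54, limma adjusted p = 0.318). Once the length and GC trend was removed, the log2 fold change was 0.28 for Mvk and -0.10 for Mvd.

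The 4 with both KO libraries lower act on the sterol rings, as do Tm7sf2, Ebp, Cyp51 and Dhcr7, whose groups overlapped. This grouping was made after the values were seen and was not tested. Transcript GC content was 42.9% (Sc5d) to 45.8% (Nsdhl) in these 4, against 56.3% for Mvk and 59.0% for Mvd. Hsd17b7, a ketosteroid reductase, had 269, 262 and 213 in WT and 90.5 and 131 in KO, or 44.6% of WT (limma log2 fold change -1.17 ± 0.33, SE, adjusted p = 0.0897, DESeq2 adjusted p = 0.017). It was the lowest fold change among these 10 enzymes and the 7 members. With the length and GC trend removed its value was -0.75.

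Its partners in demethylation at carbon C4, and the desaturase Sc5d, had lower values as well in both KO libraries, without a call. Msmo1, the C4 methyl oxidase, had 520, 523 and 733 normalized read counts in WT and 337 and 396 in KO (log2 fold change -0.67, limma adjusted p = 0.141). Nsdhl, the decarboxylating dehydrogenase, had 525, 358 and 411 in WT and 284 and 187 in KO (log2 fold change -0.88, limma adjusted p = 0.118), and with KO 3 alone it was called (-1.18, limma adjusted p = 0.042), while KO 2 alone gave -0.58 (limma adjusted p = 0.44). Sc5d, the lathosterol desaturase, had 696, 663 and 771 in WT and 630 and 406 in KO (log2 fold change -0.49, limma adjusted p = 0.244). Acat2, Pmvk, Tm7sf2 and Ebp, a thiolase, a kinase, a reductase and an isomerase, had log2 fold changes of -0.01, 0.25, 0.07 and 0.05 with overlapping groups. After removal of the length and GC trend, the values were -0.30 for Msmo1, -0.57 for Nsdhl and 0.00 for Sc5d, and that of Pmvk turned to -0.23.

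**Figure D2:**
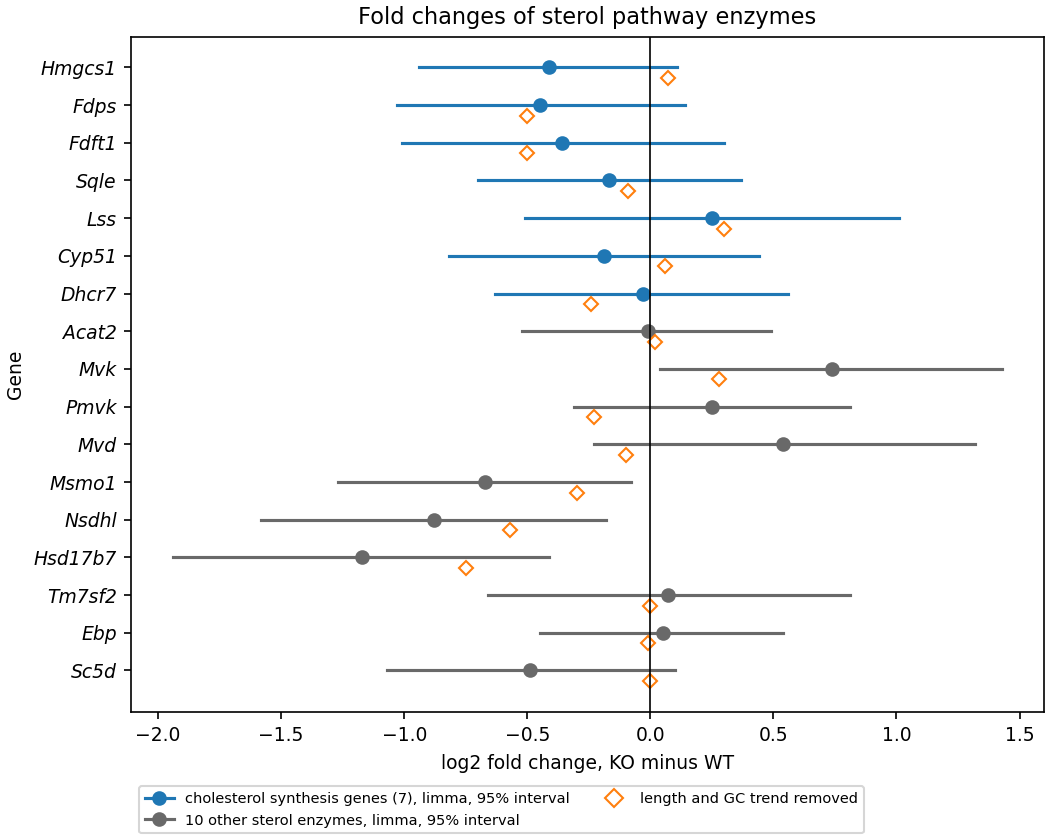
Log2 fold change (KO minus WT) of the 7 cholesterol synthesis genes (blue) and the 10 other sterol enzymes (grey), with points from limma, bars for its 95% intervals and orange diamonds for the value after removal of the length and GC trend. All 7 blue intervals cross 0, and the diamond of Hmgcs1 lies at 0.07 against a point at -0.41.

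The regulators of the pathway had log2 fold changes in both directions. Of 7 SREBP regulators, limma and edgeR called 0, 3 had an unadjusted limma p under 0.05 and DESeq2 called 2 higher (Srebf1 and Scap), beside 27.8% and 9.27% of all genes. Both KO libraries were above WT in 4 and below in 1, against 23.9% and 23.2% of all genes tested. The median log2 fold change was 0.45, and 0.02 after removal of the length and GC trend. Srebf1, the SREBP gene linked mainly to fatty acid synthesis, had 3199, 3934 and 3731 normalized read counts in WT and 4578 and 6397 in KO (log2 fold change 0.58, limma adjusted p = 0.117, DESeq2 adjusted p = 0.0452). Srebf2, whose product mainly drives cholesterol genes, had 4020, 3630 and 3782 in WT and 4165 and 8180 in KO (log2 fold change 0.62, limma adjusted p = 0.178). The SCAP escort gene had 2662, 3649 and 3244 in WT and 4071 and 6202 in KO (log2 fold change of Scap 0.67, limma adjusted p = 0.117, DESeq2 adjusted p = 0.0435). In all 3 genes KO 3 was the highest library, and after the trend with length and GC content was taken out the log2 fold changes were -0.04, 0.02 and -0.01. With KO 3 alone, all 3 were called by limma (0.83, 1.10 and 0.97), as were 22.1% of all genes tested. With KO 2 alone, none was (0.34, 0.13 and 0.37, limma adjusted p = 0.456, 0.75 and 0.482).

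The INSIG genes, whose products retain SCAP, differed in sign. Insig1, itself an SREBP target, had 517, 283 and 430 normalized read counts in WT and 570 and 522 in KO (log2 fold change 0.45, limma adjusted p = 0.346). Insig2 had 512, 450 and 335 in WT and 332 and 207 in KO (log2 fold change -0.70, limma adjusted p = 0.192). After removal of the length and GC trend, the values were 0.58 for Insig1 and -0.41 for Insig2. The protease genes that release SREBP, Mbtps1 and Mbtps2, had log2 fold changes of 0.25 and -0.15 with overlapping groups, and that of Mbtps2 turned to 0.55 after removal of the length and GC trend.

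Genes of sterol uptake and intracellular handling all had values below 0 without a call. Limma called 0 of 5, with 1 at an unadjusted p under 0.05 (27.8% over all genes tested), and edgeR and DESeq2 called 0. Both KO libraries were below WT in 2 and above in 0 (23.2% and 23.9% over all genes tested), and the median log2 fold change was -0.33. The lowest was that of Lipa, the lysosomal lipase that frees cholesterol from its esters, with 1149, 958 and 1089 normalized read counts in WT and 811 and 466 in KO (log2 fold change -0.79, limma adjusted p = 0.114). With KO 3 alone it was called at -1.19 (limma adjusted p = 0.0163), with KO 2 alone it was -0.39 (limma adjusted p = 0.452), and after removal of the length and GC trend it was -0.24. Npc2, a lysosomal cholesterol carrier, was the highest at -0.08, with overlapping groups. With that trend removed, the list median was -0.19, and 1 of the 5 genes turned to a value above 0.

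Genes of sterol export and storage differed in direction, with 6 of 7 log2 fold changes above 0. Limma and edgeR called 0 of 7, 5 had an unadjusted limma p under 0.05, and DESeq2 called 4 higher (Abca1, Abcg1, Nr1h2 and Apoe). Both KO libraries were above WT in 5 genes and below in 1 (23.9% and 23.2% over all genes tested), beside 9.27% called higher by DESeq2 and 27.8% at that unadjusted p. The median log2 fold change was 0.69, and 0.41 after removal of the length and GC trend, where Nr1h2, a liver X receptor gene, turned from 0.68 to -0.08. The value of 0.69 was that of Nr1h3. Nr1h3 had 34.1, 60.8 and 44.6 normalized read counts in WT, 194 in KO 2 and 27.3 in KO 3. Apoe, the lipoprotein component, had 5655, 5653 and 3979 normalized read counts in WT and 9584 and 20908 in KO (limma log2 fold change 1.49 ± 0.32, SE, adjusted p = 0.0815, DESeq2 adjusted p = 2.41e-04). With KO 3 alone it was 2.06 (limma adjusted p = 0.00808), with KO 2 alone 0.93 (limma adjusted p = 0.265), and with the trend removed 0.83 (limma adjusted p = 0.197). Soat1, which esterifies cholesterol for storage, had 787, 871 and 858 in WT and 607 and 513 in KO (log2 fold change -0.59, limma adjusted p = 0.123), the lowest of the list. With the trend removed its value was -0.20.

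The isoprenoid branch, fed by the same farnesyl diphosphate, was also measured in 11 genes. Limma and edgeR called 0, 4 had an unadjusted limma p under 0.05 (27.8% over all genes tested) and DESeq2 called 1 lower (9.46% over its genes). In 4 genes both KO libraries were below WT and in 2 above, beside 23.2% and 23.9% of all genes tested. The gene called, Ggps1, encodes geranylgeranyl diphosphate synthase and had 540, 487 and 465 normalized read counts in WT and 272 and 240 in KO, or 51.5% of WT. It differed by -0.95 on the log2 scale (SE 0.25, adjusted p = 0.082 in limma, DESeq2 adjusted p = 0.00619), and -0.26 after removal of the length and GC trend. Coq2, of ubiquinone synthesis, was the highest, with 1176, 1430 and 1255 in WT and 1646 and 2330 in KO (log2 fold change 0.61, limma adjusted p = 0.119). With the length and GC trend removed its value was 0.31. It was 0.86 with KO 3 alone and 0.36 with KO 2 alone.

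Fatty acid synthesis genes are also SREBP targets. Of 10, limma and edgeR called 0, 3 had an unadjusted limma p under 0.05 and DESeq2 called Fasn and Me1 higher, where the shares over all genes were 27.8% and 9.27%, with 4 above and 0 below WT in both KO libraries (23.9% and 23.2% over all genes tested). Fatty acid synthase, Fasn, had 3802, 4070 and 3438 normalized read counts in WT and 9974 and 8247 in KO (limma log2 fold change 1.27 ± 0.17, SE, adjusted p = 0.0815, DESeq2 adjusted p = 5.54e-08). With the length and GC trend removed, its log2 fold change was 0.65 (limma adjusted p = 0.247). With KO 3 alone the log2 fold change of Fasn was 1.13, and with KO 2 alone 1.41. The part of adipocyte RNA in these values was not tested. Me1, the malic enzyme, had 23.3, 8.68 and 3.43 in WT, 244 in KO 2 and 25.8 in KO 3. Scd1, a desaturase abundant in adipocytes, had 139, 138 and 191 in WT, 3348 in KO 2 and 69.9 in KO 3. Elovl6, an elongase, had the lowest fold change (-0.11, and 0.29 with the trend removed).

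**Figure D3:**
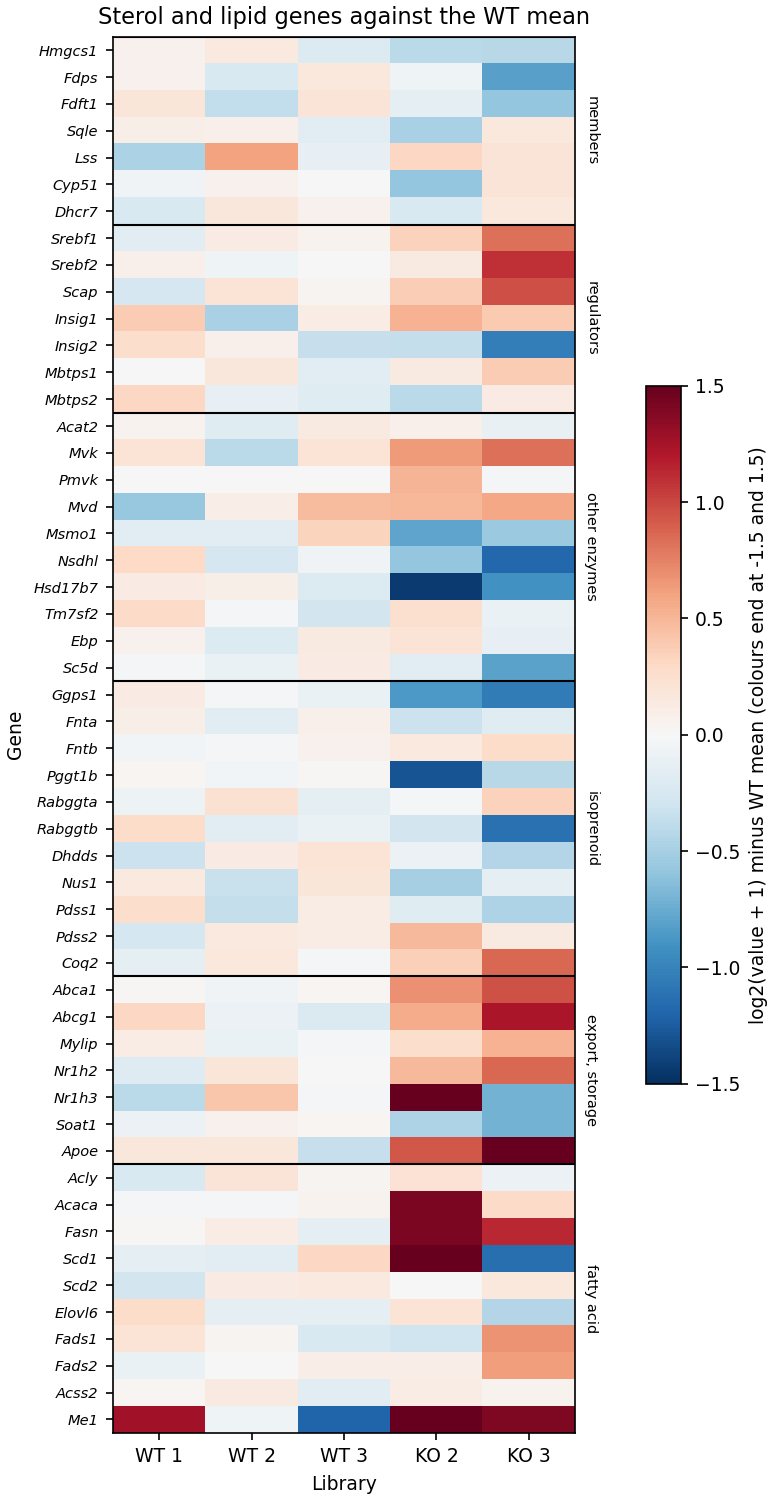
Log2(value + 1) minus the WT mean in each library (columns) for the 7 cholesterol synthesis genes and 5 related lists (rows), with colours ending at -1.5 and 1.5. Fasn and Apoe are high in both KO libraries, Scd1 is high in KO 2 and low in KO 3, and Sqle and Cyp51 have opposite colours in the 2 KO libraries.

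The genes whose pattern over the 5 libraries was most like the mean of the 7 members were Zdhhc24, Aaed1, Rassf5, Ubl3 and Arl8a, with root mean square differences of 0.015, 0.021, 0.034, 0.038 and 0.038 on the log2 scale. The members themselves differed more from their own mean, by 0.174 (Dhcr7) to 0.42 (Lss). With 5 libraries, this likeness is a description only.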

How the data were processed

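Bulk RNA of 5 HSC samples was sequenced after SMART-Seq v4 low-input library preparation. Per the submitters' processing notes, reads were aligned with STAR to mm10, counted with featureCounts and scaled with DESeq2, while versions, annotation and strand setting were not given in the sources used here. The authors deposited the normalized signal per gene, in which every value was a whole multiple of a library step, so that reads were recovered for 100% of values (tolerance 0.01 reads). A second deposited table held the authors' own fold changes and p-values and was not used.

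The test covered 13661 genes that reached 10 in 2 or more libraries and was run with limma 3.58.1 (lmFit, eBayes with trend) on log2(value + 1), in R 4.3.3, with Benjamini-Hochberg adjustment over all of them and calls at an adjusted p under 0.05. Fold changes on this scale understate changes of low genes. EdgeR 4.0.16 (quasi-likelihood) and DESeq2 1.42.0 were run on the recovered reads as alternatives, because the deposited values were normalized (the study used DESeq2). Other alternatives were a pseudocount of 10, no filter, TMM scaling, a replicate block, removal of a linear trend with log2 length and GC content of the longest GENCODE M21 transcript (13015 genes matched by symbol), and leaving out each library. The reads carried no molecular identifiers and may include copies of one molecule. Scripts were tested on simulated data.

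The members and gene lists were chosen with earlier results of these data known. Named genes were all members, the other sterol enzymes and SREBP regulators listed here, the highest and lowest fold change of each other list, Syncrip, and the 5 genes with a mean of at least 100 most like the members. Genes called by DESeq2 alone, or with both KO libraries on one side of WT, were named after their values were seen. The same holds for Scd1, Nr1h3, Elane, Prtn3, Kit and the other HSC markers named. Promoters were taken from RefSeq (GRCm38.p6), and coordinates from GENCODE M21 (GRCm38). Some genes of these lists are not reported here and were left out of the lists' counts.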

Additional observations from a re-analysis of the deposited data

How the results depend on the processing

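Of the 13661 genes tested, limma called 1. The count was 2 with a pseudocount of 10, 1 with TMM scaling, 0 of 17487 without the filter (3963 at an unadjusted p under 0.05), 2 with edgeR, 2279 with DESeq2 of the 12170 with an adjusted p, 6 with the replicate block, 0 of 13015 with the length and GC trend removed (2253 at an unadjusted p under 0.05) and 0 to 3024 when each library was left out, the highest without KO 2. The cause of these differences was not tested. With 1 KO library left, that library was assumed to vary like the WT ones. Of the cholesterol synthesis members, 0 were called in the limma comparison and in every alternative except without KO 2 (range 0 to 1 over the left-out libraries, Fdps at -0.82). Of the other sterol enzymes, 0 were called, 1 with DESeq2, and 0 to 1 over the left-out libraries (Nsdhl without KO 2). The median log2 fold change of the members was -0.19, -0.09 with the length and GC trend removed and -0.25 to 0.16 over the left-out libraries. The number of members with both KO libraries below WT was 1, 0 with that trend removed and 1 to 4 over the left-out libraries (where a KO library was left out, the other alone, 3 for KO 3 and 4 for KO 2, beside 38.3% and 30.9% of all genes), an alternative added after seeing the data. Directions reversed with the trend removed for Hmgcs1 (0.07) and Cyp51 (0.06), without WT 2 for Dhcr7 (0.05), and without KO 2 for Sqle (0.16), Cyp51 (0.19) and Dhcr7 (0.16), against -0.49, -0.58 and -0.23 without KO 3. Deviations from the group mean correlated at -0.0594 (WT 2 with KO 2) and -0.183 (WT 3 with KO 3). With 2 KO libraries the KO deviations mirror each other, so these values cannot show whether same-numbered libraries are paired. The replicate block rested on a shared number only. WT 1 has no KO library of its number, so member fold changes under the block equalled those without WT 1. With the block, 0 members were called and their median was -0.22. The fewest reads behind a value of any member was 208.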
